A study of Homo sapiens with 6 samples.

Results

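The genes described here are 10 members of the Hedgehog pathway, GLI1, GLI2, GLI3, SUFU, PTCH1, SMO, GPR161, KIF7, EVC and EVC2, named as a list and found by symbol among the 63140 genes of a raw count table. All 10 had a row, and 9 of them passed the filter on low counts and were among the 17427 genes tested. EVC2 was the exception, with no read in any library. The rule that names them uses no measured value, though the list was proposed with results of these data in view.

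Bulk RNA sequencing was done on HEK293T cells, an immortalised line from human embryonic kidney, transfected with a miR-34a duplex (3 libraries) or with the AllStars negative control (3 libraries). Both groups were the same line, both were transfected, and RNA was taken 18 h later, so an untransfected state was not part of the comparison. The control is called an siRNA in one of the labels and a miRNA in another. The series asks how features of the miRNA and target complex bear on repression. No Hedgehog ligand or pathway drug is named for either group, and neither cilia nor GLI protein was measured.

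In vertebrate cells the primary cilium is the place where Hedgehog signals are read. Without ligand, the receptor PTCH1 keeps the transducer SMO out of the cilium, the receptor GPR161 keeps protein kinase A active there, and GLI2 and GLI3 are held by SUFU and trimmed to repressors. With ligand, SMO gathers in the cilium beside the EVC and EVC2 complex, KIF7 works at the ciliary tip, and full-length GLI proteins switch on target genes, among them GLI1 and PTCH1 themselves.

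The miRNA transfected was miR-34a, whose guide strand miR-34a-5p is shown because its seed defines the matches searched in these genes. It is given 5′ to 3′ from RefSeq (GRCh38.p14, chr1:9151735-9151756, minus strand), with the seed, bases 2 to 8, in capitals.
miR-34a-5p: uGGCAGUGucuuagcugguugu
The matches searched in 3′ untranslated regions (3′ UTRs) were the 8mer CACTGCCA, the 7mer-m8 CACTGCC, the 7mer-A1 ACTGCCA and the 6mer ACTGCC, on the transcript strand, each gene taking its strongest match. GPR161 and EVC were the members with a 7mer or 8mer match, SMO and SUFU had a 6mer alone, and GLI1, GLI2, GLI3, PTCH1, KIF7 and EVC2 had none in the transcript searched. The strongest match of each of these 4 genes is shown with 11 bases on either side and the match in capitals.
GPR161 7mer-A1: tttagctgtaaACTGCCAtgcagtggcag
EVC 7mer-m8: atgtctccagaCACTGCCccgtgtccatg
SMO 6mer: cctgtgggctgACTGCCctccgaagaga
SUFU 6mer: gctgtgcctctACTGCCctgaggactta
In GENCODE release 29 on GRCh38, the GPR161 match lies at chr1:168082759-168082765 on the minus strand, in the last of its 7 exons and 2766 bases after the stop codon. The EVC match lies at chr4:5812828-5812834 on the plus strand, in exon 21 of 21. The 6mers lie at chr7:129212565-129212570 in SMO, 114 bases after the stop codon, and at chr10:102631927-102631932 in SUFU, 1772 bases after it, both in exon 12 of 12 on the plus strand.

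Library totals were 25198898, 29136281 and 36650331 counts with miR-34a and 24728662, 32322583 and 32849065 counts with the control. All 8 genes listed for HEK293 cells had a mean of at least 1 CPM (counts scaled to a common library size), and their summed level was 542 to 577 CPM with miR-34a and 599 to 660 CPM with the control; NEFL and NEFM of this list fell, by 0.32 and 0.22 on the log2 scale. Of 9 markers of other cell types, CD3E and TYR had no read, and the list summed to 23.4 to 25.9 CPM with miR-34a and 23.2 to 29.3 CPM with the control. For SIRT1, miR-34a replicate 2 stood apart. SIRT1 stood at 49.7, 428 and 73.3 CPM in miR-34a replicates 1, 2 and 3 and at 92.4, 71.1 and 83.7 CPM in the controls. How many other genes had such a library is not given here. P-values below come from the quasi-likelihood test of edgeR across all tested genes, adjusted by the Benjamini-Hochberg method. They rest on the spread between these 6 libraries, which the series describes as biological replicates. In bulk RNA, less RNA per cell and fewer cells that make it cannot be told apart.

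None of the 9 tested Hedgehog genes passed the test: 0 rose and 0 fell. Over all tested genes, 938 rose and 1167 fell at an adjusted p under 0.05, which is 5.38% and 6.7%. No member had an unadjusted p under 0.05 either, by edgeR or by DESeq2, whereas 24.4% of all tested genes did by edgeR. The members' log2 fold changes, miR-34a over control, lay between -0.46 and 0.19 with a median of -0.07, beside a median of -0.004 over all tested genes. GLI3 and EVC had positive values and the other 7 negative ones. For 8 of the 9 genes the 95% interval of the fold change lay within 1.5-fold either way, between 0.813 and 1.34. GLI1, the least expressed, was the exception.

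**Figure D1:**
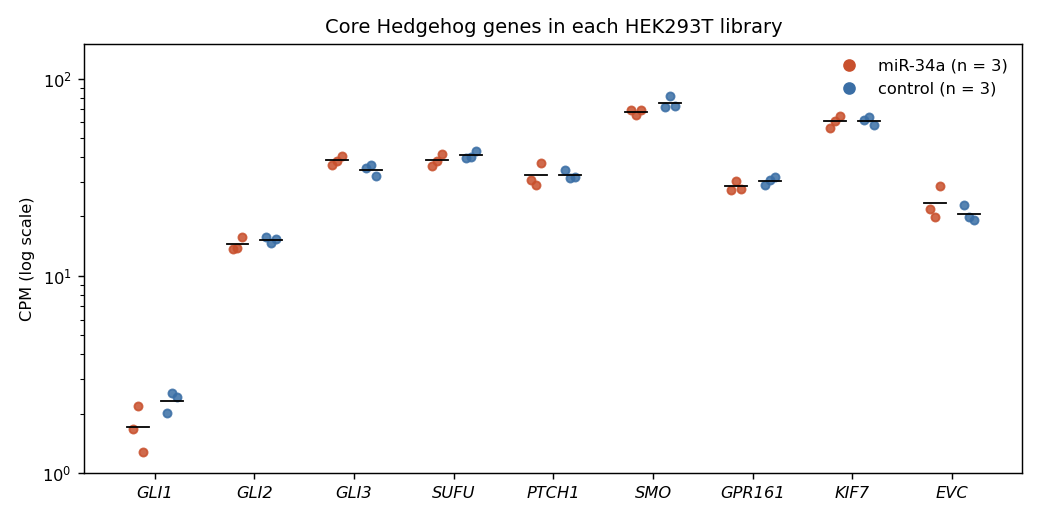
CPM on a log scale for the 9 core Hedgehog genes with reads, with 1 point per library, miR-34a left of control and a bar at each mean (n = 3 per group). The groups lie apart for SMO and GLI3 and overlap for the other 7 genes.

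**Figure D2:**
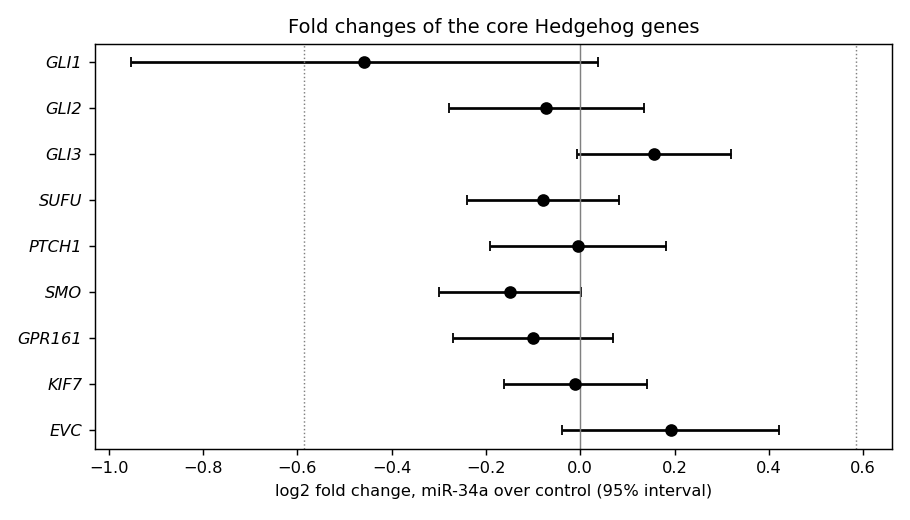
Log2 fold change of each gene, miR-34a over control, with its 95% interval from the edgeR quasi-likelihood fit; dotted lines mark 1.5-fold either way. All 9 intervals include 0, and the GLI1 interval alone passes a dotted line.

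Among the receptors, PTCH1 (chr9:95442980-95517057, minus strand), the Hedgehog receptor and itself a GLI target, stood at 30.8, 28.9 and 37.3 CPM with miR-34a and at 34.6, 31.4 and 31.6 CPM with the control. The control values fell inside the range of the miR-34a values. The means were 32.3 ± 4.40 and 32.5 ± 1.77 CPM (SD, n = 3 each), a fold change of 0.997 with a 95% interval of 0.876 to 1.13 (adjusted p = 0.981, edgeR). SMO (chr7:129188872-129213545, plus strand), the membrane transducer that PTCH1 inhibits, stood at 69.1, 65.4 and 69.7 CPM with miR-34a and at 71.5, 82.1 and 72.6 CPM with the control. Every miR-34a library lay below every control library, and control replicate 2 was the highest of all 6. The log2 fold change of -0.15 ± 0.07 (SE) did not pass (adjusted p = 0.211, edgeR), and its 95% interval ran from -0.30 to 0.002; without control replicate 2 the log2 value was -0.08. GPR161 (chr1:168079543-168137667, minus strand), the ciliary receptor that holds the pathway off, stood at 27.3, 30.4 and 27.5 CPM with miR-34a and at 28.8, 30.7 and 31.8 CPM with the control. The groups overlapped, and the log2 difference was -0.10 ± 0.08 (SE; edgeR adjusted p = 0.509). Besides its 7mer-A1, the GPR161 3′ UTR searched holds a pair of 6mers.

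A window of PTCH1 is shown because PTCH1 serves as a readout of GLI activity and this window holds the GLI motif GACCACCCA, searched on both strands and in capitals below as its reverse complement. The sequence is a RefSeq promoter window from 250 bases before to 50 bases after an annotated start, chr9:95509217-95509516 on the minus strand of GRCh38.p14. This window lies inside the gene, whose 5′ end in GENCODE 29 is at chr9:95517057, and it was picked because it holds the motif. The motif starts 172 bases before the start of this window.
PTCH1 promoter window: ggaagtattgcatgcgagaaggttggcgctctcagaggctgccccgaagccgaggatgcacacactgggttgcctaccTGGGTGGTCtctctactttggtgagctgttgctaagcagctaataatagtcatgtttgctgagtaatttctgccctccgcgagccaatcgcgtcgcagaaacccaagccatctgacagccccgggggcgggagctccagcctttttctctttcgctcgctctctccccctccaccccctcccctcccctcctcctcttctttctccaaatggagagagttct
RefSeq windows were at hand for 8 of the 10 genes, all but GLI1 and GLI3, and PTCH1 was the 1 gene of the 8 with this motif. Over all genes with a window, 81 of 27305 (0.297%) held it in any of their windows, and 83 of 35116 windows (0.236%) held it. The motif was chosen with the expression values known, and a match is a description of the sequence alone.

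The 3 GLI transcription factors differed widely in level. GLI1 (chr12:57460135-57472262, plus strand), an activator that is itself switched on by the pathway, stood at 1.67, 2.19 and 1.27 CPM with miR-34a and at 2.004, 2.53 and 2.42 CPM with the control. These values came from 42, 64 and 47 reads with miR-34a and from 49, 83 and 78 reads with the control, and miR-34a replicate 2 lay inside the control range. The log2 fold change of -0.46 ± 0.24 (SE) was the largest among the members but did not pass (adjusted p = 0.25, edgeR), and the 95% interval of the fold change ran from 0.517 to 1.03. Single libraries moved the log2 value, to -0.27 without miR-34a replicate 3 and to -0.68 without miR-34a replicate 2. GLI2 (chr2:120735623-120992653, plus strand), the main activator, had 13.7, 13.8 and 15.8 CPM with miR-34a and 15.7, 14.6 and 15.3 CPM with the control, overlapping groups with a log2 fold change of -0.07 ± 0.10 (SE). GLI3 (chr7:41960950-42237870, minus strand), the main repressor, had 36.7, 38.4 and 40.4 CPM with miR-34a and 35.3, 36.4 and 32.0 CPM with the control. All 3 miR-34a libraries lay above all 3 controls, narrowly so between miR-34a replicate 1 and control replicate 2. The log2 fold change of 0.16 ± 0.08 (SE) did not pass (adjusted p = 0.229, edgeR) and was 0.10 without control replicate 3. SMO and GLI3 were thus the 2 of 9 members whose groups did not overlap, against 27.3% of all tested genes. They differed in opposite directions.

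The cytoplasmic and tip regulators did not pass either. SUFU (chr10:102503987-102633535, plus strand), which binds and restrains GLI proteins, had 36.0, 38.4 and 41.6 CPM with miR-34a and 39.7, 40.1 and 42.9 CPM with the control. KIF7 (chr15:89608789-89655451, minus strand), the kinesin at the ciliary tip, had 56.3, 61.3 and 64.5 CPM with miR-34a and 61.8, 63.8 and 58.0 CPM with the control. The groups overlapped for both, with log2 fold changes of -0.08 ± 0.08 and -0.01 ± 0.07 (SE; adjusted p = 0.602 and 0.95, edgeR). KIF7 shares 11.8% of its exonic length with TICRR on the opposite strand, and the library chemistry, TruSeq RNA v2, does not mark strand. Reads from the shared part cannot be told apart; TICRR averaged 103 CPM with miR-34a and 101.1 CPM with the control (log2 fold change 0.03). Among the other members, SMO shares 2.99% of its exonic length with the antisense gene ENSG00000243230 (0.836 CPM with miR-34a, 0.437 CPM with the control; edgeR adjusted p = 0.114), and PTCH1 (4.29%) and GLI1 (0.19%) share some with genes too low to be tested.

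EVC and EVC2 are neighbouring genes whose products form 1 complex at the base of the cilium, where it carries the signal on from SMO. EVC (chr4:5711197-5814305, plus strand) had 21.8, 19.8 and 28.6 CPM with miR-34a and 22.8, 19.9 and 19.1 CPM with the control. The groups overlapped, miR-34a replicate 3 was the highest library, and the log2 fold change of 0.19 ± 0.11 (SE) did not pass (adjusted p = 0.312, edgeR). That value was 0.01 when miR-34a replicate 3 was left out. EVC shares 2.22% of its exonic length, 159 bases, with CRMP1 on the opposite strand, which fell (7.44 CPM with miR-34a, 10.7 CPM with the control; log2 fold change -0.52 ± 0.13, SE; adjusted p = 0.00617, edgeR).

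EVC2 (chr4:5542772-5709548, minus strand) had 0 counts in all 3 miR-34a libraries and in all 3 control libraries, while EVC summed to 4007 counts over the 6. A count of 0 allows up to 3 counts per library, which is 0.0811 to 0.123 CPM here, for counting error only. No other GENCODE 29 gene shares exonic sequence with EVC2. The annotation used for counting is not given, and whether the 0 depends on it could not be settled from the counts. Of the 19855 protein-coding genes in the table, 3056 (15.4%) likewise had 0 counts in every library. The pair is read in opposite directions from starts 1649 bases apart in GENCODE 29. The RefSeq promoter windows of both are shown because the pair lies head to head and reads were found for one gene alone. They are chr4:5710951-5711250 on the plus strand for EVC and chr4:5708510-5708809 on the minus strand for EVC2, both GRCh38.p14, with 250 bases before and 50 after the start RefSeq gives.
EVC promoter window: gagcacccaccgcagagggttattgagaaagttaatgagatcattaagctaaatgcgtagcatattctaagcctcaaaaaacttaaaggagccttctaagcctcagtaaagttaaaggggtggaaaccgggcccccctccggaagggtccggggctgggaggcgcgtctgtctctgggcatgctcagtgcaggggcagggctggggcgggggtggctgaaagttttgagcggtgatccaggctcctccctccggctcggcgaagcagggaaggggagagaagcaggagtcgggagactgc
EVC2 promoter window: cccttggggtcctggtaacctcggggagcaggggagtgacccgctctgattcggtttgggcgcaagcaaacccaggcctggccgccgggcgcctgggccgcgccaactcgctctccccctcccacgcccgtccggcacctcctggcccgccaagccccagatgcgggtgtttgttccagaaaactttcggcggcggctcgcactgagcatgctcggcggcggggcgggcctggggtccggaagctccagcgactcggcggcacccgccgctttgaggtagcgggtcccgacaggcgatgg
The EVC window holds 13 CpG and is 57.7% G or C, and the EVC2 window holds 32 CpG and is 71.3% G or C. The median over all 35116 windows was 14 CpG, with quartiles of 4 and 28. Methylation was not measured.

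Per kilobase of exonic sequence, the order of the members' mean levels was the same in both groups. SMO led with a mean of 15.8 CPM per kilobase with miR-34a and 17.5 with the control, followed by KIF7 at 12.1 with miR-34a and 12.2 with the control. SUFU stood at 5.63 CPM per kilobase with miR-34a and 5.95 with the control. GLI3, EVC, GPR161, GLI2 and PTCH1 came next, between 3.52 and 1.95 CPM per kilobase with miR-34a and between 3.16 and 1.96 with the control. GLI1 was last of those with reads, at 0.407 CPM per kilobase with miR-34a and 0.552 with the control. Libraries of GLI3 and EVC overlapped in both groups, those of GLI2 and PTCH1 likewise, and those of EVC and GPR161 in the control alone. The ranges thus do not separate the neighbours in these pairs there. Both genes of a pair come from the same libraries, and their difference within each library was not tested. Exonic length counts every annotated exon of a gene, so these levels are comparable only roughly.

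The seed matches can be set beside the changes. Of the 9 tested members, 2 held a 7mer or 8mer match, GPR161 and EVC, and neither passed the test. Among all tested genes with a 3′ UTR of at least 50 bases, 2706 of 12943 (20.9%) held such a match; 19.4% of those fell, against 4.90% of genes with no match. In the wider Hedgehog pathway, the 7 genes with such a match that fell were GAS1, CDON, GRK3, DHCR7, CDK6, CCND1 and FOXM1, of 21 with a match. In the list of ciliary trafficking genes, 6 held such a match, 0 of them fell and 5 rose (TULP3, RAB23, ARL6, RPGRIP1L and INTU). Of all tested genes with such a match 4.62% rose, and of the whole ciliary list, with or without a match, 30 of 43 rose. The co-receptors GAS1 and CDON are shown for comparison with the members' matches, in the same layout.
GAS1 8mer: aaaaagctctgCACTGCCAtgtatgaaagt
CDON 7mer-A1: ccagctatagtACTGCCAagaagtgaagt
The GAS1 match lies at chr9:86944952-86944959 on the minus strand, 783 bases after the stop codon in its only exon (exon 1 of 1). The CDON match lies at chr11:125957665-125957671 on the minus strand, 3271 bases after the stop codon in exon 20 of 20.

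Outside the 10 members, 81 further genes were listed as the wider pathway, by role, and 75 were tested. Of these 6 rose (8.0%, against 5.38% of all tested genes) and 9 fell (12.0%, against 6.7%), with a median log2 fold change of -0.04. The same shares over all tested genes belong beside the counts of each list below, and the lists are small. The ligands SHH, IHH and DHH were not tested: none passed 14 counts in any library. Of 5 tested genes for ligand processing and release, DISP2, a relative of the ligand transporter DISP1, fell (2.19, 2.16 and 2.43 CPM with miR-34a, 3.64, 5.0 and 3.57 CPM with the control; log2 fold change -0.85 ± 0.19, SE; adjusted p = 0.00357, edgeR). Without control replicate 2, its highest library, it was -0.67 and no longer passed (adjusted p = 0.0532, edgeR).

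Of 9 co-receptors and ligand antagonists, 2 fell and 0 rose. GAS1, a membrane-anchored co-receptor that presents ligand to PTCH1, had 28.1, 23.4 and 26.9 CPM with miR-34a and 40.1, 41.4 and 43.1 CPM with the control, with no overlap (log2 fold change -0.67 ± 0.08, SE; adjusted p = 2.41e-06, edgeR). CDON, a co-receptor of the immunoglobulin superfamily, had 23.4, 24.7 and 27.3 CPM with miR-34a and 37.8, 32.1 and 35.4 CPM with the control, also with no overlap (log2 fold change -0.48 ± 0.09, SE; adjusted p = 0.000354, edgeR). BOC, the relative of CDON and named after its values were seen, did not pass (log2 fold change -0.12; edgeR adjusted p = 0.527). PTCH1, SMO and GPR161 did not pass while GAS1 and CDON fell, and the difference between these genes was not itself tested.

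Of 16 regulators of SMO and partners of the EVC complex, 3 rose and 2 fell. IQCE and EFCAB7, which tether the EVC complex to the ciliary base, both rose. IQCE had 50.7, 47.8 and 49.9 CPM with miR-34a and 38.0, 32.4 and 33.03 CPM with the control (log2 fold change 0.52 ± 0.08, SE; adjusted p = 3.78e-05, edgeR). EFCAB7 had 32.3, 30.9 and 29.8 CPM with miR-34a and 22.4, 21.7 and 22.8 CPM with the control (log2 fold change 0.47 ± 0.08, SE; adjusted p = 0.000197, edgeR). Neither overlapped between groups, whereas EVC did and EVC2 was at 0. EFCAB7 shares 2.3% of its exonic length with ITGB3BP on the opposite strand. MOSMO, which lowers SMO at the cilium, had 22.4, 20.3 and 20.4 CPM with miR-34a and 16.2, 15.6 and 16.0 CPM with the control (log2 fold change 0.40 ± 0.09, SE; adjusted p = 0.00372, edgeR). DHCR7, the last enzyme in the synthesis of cholesterol, the sterol that SMO binds, fell (log2 fold change -0.74; adjusted p = 1.69e-08, edgeR), as did the receptor kinase GRK3 (-0.25; adjusted p = 0.0306).

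**Figure D3:**
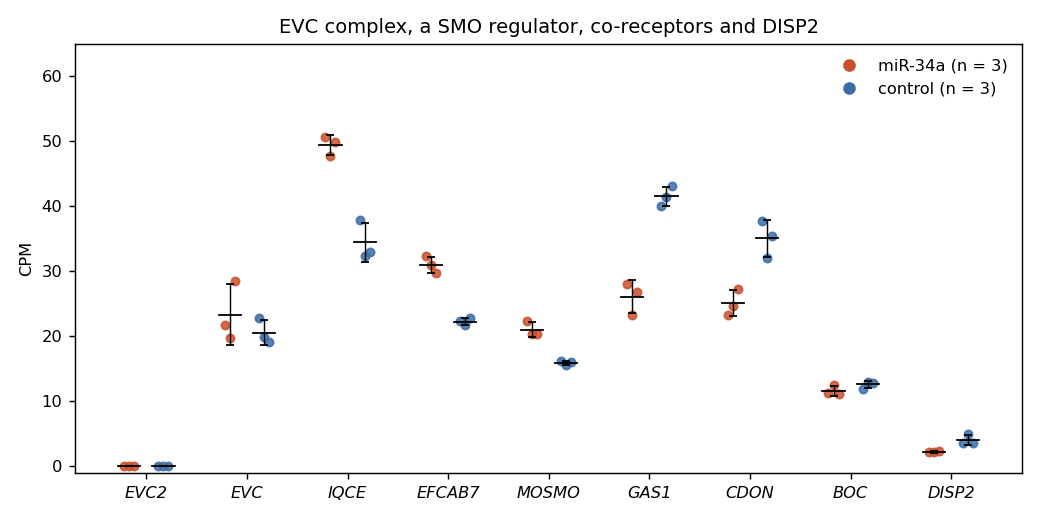
CPM in each library for EVC2, EVC, their tethers IQCE and EFCAB7, the SMO regulator MOSMO, the co-receptors GAS1, CDON and BOC, and DISP2, with miR-34a left of control; long bars are means and whiskers SD (n = 3 per group). IQCE, EFCAB7 and MOSMO sit higher with miR-34a, GAS1, CDON and DISP2 lower, EVC and BOC overlap, and EVC2 is at 0.

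Of 23 genes of protein kinase A signalling, GLI kinases and ubiquitin ligases, 3 rose and 0 fell. They were STK36, the relative of the fly Hedgehog kinase fused (64.7 CPM with miR-34a, 47.2 CPM with the control; log2 fold change 0.46; adjusted p = 0.000117, edgeR), SPOPL, a relative of the GLI ubiquitin ligase adaptor SPOP (33.4 CPM with miR-34a, 24.9 CPM with the control; 0.43; adjusted p = 0.000697), and PRKAR1A, a regulatory subunit of protein kinase A (0.23; adjusted p = 0.0229). Of 24 tested target genes, 4 fell and 0 rose: CDK6, CCND1, FOXM1 and FOXF2, with log2 fold changes of -0.90, -0.74, -0.23 and -0.26. The calls of GRK3, PRKAR1A, FOXM1 and FOXF2 were lost in several fits that left out 1 library, with adjusted p up to 0.219 by edgeR. Exonic sequence is shared with a gene on the opposite strand by STK36 (4.03%, RNF25), FOXM1 (15.9%, ITFG2) and CCND1 (10.3%, LTO1), so their values are less certain. CDK6 and CCND1 are also long studied as direct targets of miR-34a and drive the cell cycle in many settings. What lowered these target genes here was not tested. The feedback target HHIP, named after its values were seen, did not pass (log2 fold change -0.08; edgeR adjusted p = 0.837), like PTCH1 and GLI1.

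Of 43 ciliary trafficking genes known to act on Hedgehog signalling, 30 rose (69.8%, against 5.38% of all tested genes) and 0 fell, with a median log2 fold change of 0.37, against 0 of 9 members. TCTN1, of the ciliary transition zone, averaged 62.5 CPM with miR-34a and 33.9 CPM with the control (log2 fold change 0.88). DYNC2LI1, of the retrograde motor that returns cargo from the tip, averaged 57.9 CPM with miR-34a and 33.4 CPM with the control (0.79), and LZTFL1, a regulator of the BBSome, 73.7 CPM with miR-34a and 43.9 CPM with the control (0.75). TCTN1 shares 6.61% of its exonic length with HVCN1. IFT88, of the intraflagellar transport train, and TCTN2, of the transition zone, had log2 fold changes of 1.10 and 1.09. RAB34, a GTPase of early cilium assembly, stands in this list and in the wider pathway. The log2 CPM of each gene was also centred on its mean over the control libraries, which holds the control values near 0 by construction. Library by library, the median centred log2 CPM of the ciliary genes was 0.34, 0.32 and 0.42 with miR-34a and 0.04, -0.04 and -0.002 with the control. That of the 9 members was -0.12, -0.06 and 0.05 with miR-34a and 0.02, 0.01 and -0.04 with the control, so the members' groups overlapped where those of the ciliary genes did not. These lists were drawn up with results of these data known, and their difference was not tested.

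**Figure D4:**
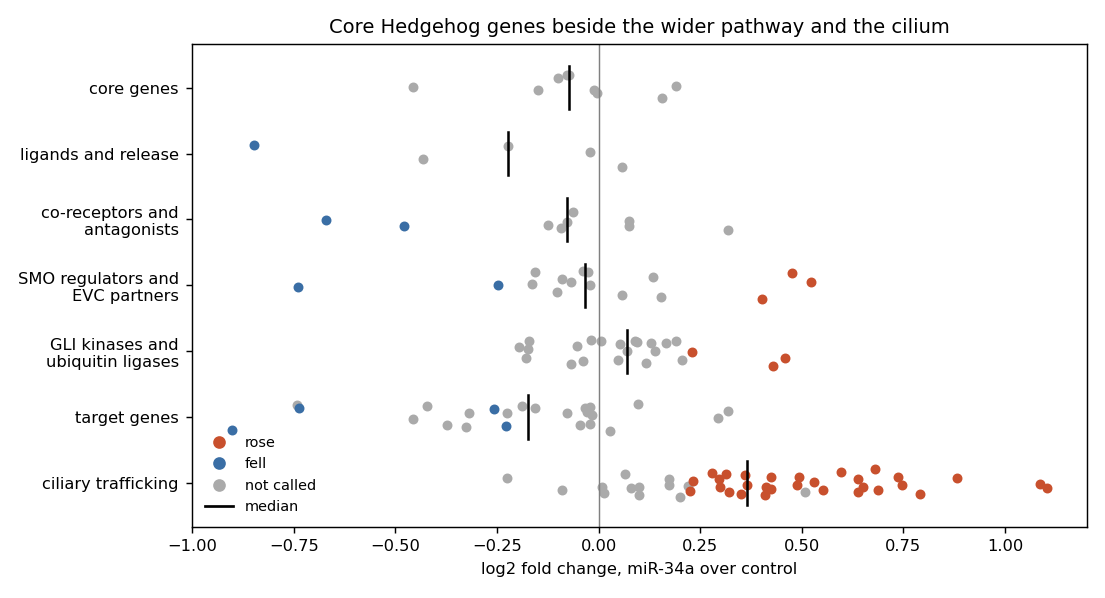
Log2 fold change, miR-34a over control, of each tested gene of the core Hedgehog list, of 5 lists of the wider pathway and of the ciliary trafficking list; red points rose and blue points fell by the edgeR test, and black bars are medians. The core genes are all grey around a median of -0.07, and the ciliary genes lie mostly to the right around a median of 0.37.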

How the data were processed

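The values the authors deposited are unnormalised counts of reads for each Ensembl gene in 3 miR-34a and 3 control libraries. The submitters' processing notes list GRCh38, STAR (2.7.11a), Subread (2.0.3) with featureCounts, and edgeR (3.42.4). The gene annotation, strandedness option and handling of multi-mapping reads were not given in the sources used here. Symbols were matched for 62541 of 63140 identifiers through the reference gene tables, with IFT25, CPLANE1 and KIAA0586 found by synonym.

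Genes were kept by filterByExpr (minimum count 10, minimum total 15), scaled by TMM and fitted over the whole table by edgeR 4.0.16 (R 4.3.3), whose quasi-likelihood test compared the groups with no covariate. Benjamini-Hochberg adjustment ran over all tested genes, and an adjusted p under 0.05 was called. CPM take the TMM-adjusted library size as denominator and are not per length. Intervals of 95% are the log2 fold change plus or minus the t quantile times its SE. The test was also run on simulated counts with known changes, drawn from the count model of edgeR with levels and spread estimated from these libraries. Such a run cannot check the model itself.

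Alternatives tried were scaling by library size only or by DESeq2 size factors, filtering at 1 CPM in 3 libraries or not at all, the Wald test of DESeq2 1.42.0, a replicate block, and leaving out each library. Exons, 3′ UTRs and coordinates are from GENCODE 29, with the transcript of longest coding sequence. Promoter windows and the miRNA are RefSeq sequences.

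The members and gene lists were chosen with earlier results of these data known. The text names all members, up to 5 called genes per list and direction by lowest adjusted p, tested genes sharing exons with a member, and others where a member's result turns on them. Some genes of the lists are not reported here by name.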

Additional observations from a re-analysis of the deposited data

How the results depend on the processing

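No member passed the test under any alternative run; the lowest adjusted p was 0.0996, for EVC without control replicate 1 (log2 fold change 0.27, edgeR). PTCH1 and KIF7, whose changes were near 0, changed sign: PTCH1 was 0.0017 with DESeq2 size factors, 0.0088 with library size only and 0.0077 with no filter, and -0.1246 to 0.0726 with single libraries left out; KIF7 was 0.0022 with library size only, 0.002 with no filter and -0.0574 to 0.0404 with single libraries left out. In the fit reported both values were smaller than their standard errors; the cause was not tested. Leaving out single libraries moved the genes that rose between 525 and 1287 and those that fell between 727 and 1394 over all genes, and the ciliary genes that fell between 0 and 1, the 1 being RAB34 without control replicate 1 (-0.33, adjusted p = 0.00571, edgeR). Over all alternatives the wider pathway held 5 to 9 genes that rose and 6 to 10 that fell, and the ciliary list 25 to 31 that rose. Besides DISP2 without control replicate 2 (adjusted p = 0.0532), leaving out single libraries took away 4 calls of the wider pathway (edgeR): GRK3 without miR-34a replicate 1 or 2 or control replicate 1 or 3 (adjusted p = 0.0768 to 0.129), PRKAR1A without miR-34a replicate 2 or control replicate 2 or 3 (0.0654 to 0.135), FOXM1 without miR-34a replicate 1 or 2 or control replicate 1 or 3 (0.0752 to 0.119), and FOXF2 in each fit but that without control replicate 1 (0.0761 to 0.219). In the wider pathway the replicate block took away the same 4 (0.0606 to 0.0706), no filter GRK3 (0.0512) and FOXF2 (0.0528), and library size only FOXF2 (0.0648).

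Replicate numbers did not pair the libraries: same-numbered libraries had correlations of deviations of -0.025, 0.022 and -0.076. With the replicate block 807 genes rose and 1023 fell over all genes, 0 and 0 of the members, 5 and 6 of the wider pathway and 28 and 0 of the ciliary list. Depth limits GLI1, at a mean of 51.0 reads with miR-34a and 70.0 with the control.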

Other observations

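Promoter windows were also searched, on both strands, for GTTGCC, a short form of the X-box read by RFX factors, and for the longer form GTTGCCNNGG, which contains it. Of the 8 members with a RefSeq window, PTCH1 held the short form and 0 held the longer form. Of 39 ciliary genes with a window, 18 held the short form and 6 the longer form (ARL6, DYNC2H1, DYNC2LI1, IFT122, IFT81 and INTU), and all 6 rose with miR-34a, as did 12 of the 18 with the short form and 30 of the 43 genes of the list. Over all 27305 genes with a window, 14.6% held the short form and 2.91% the longer form. In the wider pathway the longer form was held by EFCAB7, which rose, and by PRKACB and PRKAR2B, subunits of protein kinase A that did not pass (log2 fold changes -0.20 and -0.17). The motifs were chosen with the expression values known, so these shares are a description, and whether any factor binds there was not tested.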
